A study of Homo sapiens with 8 samples.

Results

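Exon usage with retinoic acid (RA) was examined in the human line NTera2/D1, embryonal carcinoma cells that resemble pluripotent stem cells and take up neural fates under RA. A small interfering RNA (siRNA) depleted the H2B ubiquitin ligase RNF20 (siRNF20), or targeted LacZ, a bacterial gene absent from these cells, as the control (siLacZ). The cells were given 10 µM RA or the solvent DMSO for 72 h. The 8 exon arrays form 4 groups of 2 biological duplicates, DMSO siLacZ, RA siLacZ, DMSO siRNF20 and RA siRNF20, each with an array numbered GF117 and one numbered GF120. The question was which exons or promoters are used differently with RA once the level of the whole gene is taken out, over both siRNA backgrounds together. RA siLacZ GF117 was left out, which leaves 3 RA arrays (RA siLacZ GF120 and both RA siRNF20) against 4 DMSO arrays. Each array holds 1384231 probe sets, the short exon fragments that the array reads one by one.

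A gene entered when 6 or more of its probe sets lay above the array median both with RA and with DMSO, and a probe set was tested when the mean of both states lay above the array median. This gave 256811 probe sets in 13644 genes, of 19426 genes with an unambiguous symbol. On each array the median of the gene's qualifying probe sets was subtracted from the log2 intensity. The remainder is called relative usage here, and its RA minus DMSO difference is 0 where a probe set moved exactly with its gene.

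One gene can give several transcripts. Splicing factors bound to the pre-mRNA decide whether a cassette exon is kept or skipped, and alternative promoters or polyadenylation sites change the first or the last exons. On an exon array a skipped exon shows as an isolated probe set that departs from its gene, whereas a promoter or 3′ end switch shows as a stretch of neighbours that move together at one end. In neural differentiation both kinds are known: the PTBP, NOVA, RBFOX, ELAVL and SRRM4 proteins set neuronal exons, and ESRP1, ESRP2 and RBM47 set epithelial ones.

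The left-out array stood apart. Its relative usage values correlated with those of the 7 others at Pearson r between 0.357 and 0.421 over 256811 probe sets, whereas the 7 correlated with one another at 0.873 to 0.936. The upper quartile of its intensities was 59.8, against 54.9 to 55.1. RNF20 itself, the target of the knockdown, had a gene-level log2 intensity of 8.09 to 8.24 on the 3 siLacZ arrays used. On the 4 siRNF20 arrays it was 5.89 to 6.48, so that none of these 7 arrays went against its siRNA label. The RNF20 level of the left-out array is not given here. Pluripotency markers define the untreated line, and the mean over 17 of them was 9.0 to 9.16 in DMSO and 7.54 to 7.83 with RA, with 11 lower and none higher in the limma fit of gene levels. Of all 18637 genes measured, 11% were called there, 4.45% higher and 6.51% lower. Of 17 markers of postmitotic neurons 5 were called higher (mean level 5.8 to 6.15 in DMSO, 6.61 to 6.78 with RA), of 14 neural progenitor markers 7, of 13 mesenchymal markers 4 higher and 2 lower, of 13 trophoblast and extraembryonic markers 3 higher, of 9 glial markers 1 lower and of 7 blood and endothelial markers 1 higher. In such bulk samples fewer cells of a type and less RNA per cell cannot be told apart, and the part of a changed cell mix in the exon-level values was not tested.

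RA changed the relative usage of 432 probe sets in 253 genes (limma, Benjamini-Hochberg adjusted p below 0.05), 218 higher and 214 lower. That is 0.168% of the probe sets tested (0.0849% higher, 0.0833% lower) and 1.85% of the genes. Of the 432, 358 lay above the array median in both states (161 higher, 197 lower); the other 74, 57 of them higher, were tested through the one state in which they are bright, so they had to differ and are described below without a test. A fit of the probe sets above the array median in both states called 308. With the GF number as a block the count was 845, in 466 genes, and held all 432. All 432 had the same sign in the 3 differences between an RA array and the DMSO array of its siRNA and GF number. In 430 of the 432 the RA and DMSO values did not overlap, against 7.64% of all probe sets tested. The differences were large, with a median size of 1.81 on the log2 scale and 408 of 2-fold or more. The 432 were chosen on these same arrays. Their shared signs, lack of overlap and large sizes follow largely from that choice and are no check of it. At an unadjusted p below 0.05 there were 19068. The count rests on few arrays: without RA siLacZ GF120 it was 17, and leaving out each of the 6 other arrays gave 140 (without DMSO siRNF20 GF117) to 225 (without DMSO siLacZ GF120). limma's diffSplice, which compares each probe set with the rest of its gene, called 2536, of which 298 were among the 432.

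Most calls lay in genes that themselves differed with RA. In genes whose median differed by less than 2-fold, 104 of 246750 probe sets were called (0.0421%), 46 higher and 58 lower, in 86 genes (278 with the GF number as a block). In genes whose median differed by 2-fold or more, 328 of 10061 were called (3.26%). Within 0.5 log2 units of no gene change, 46 of 214939 were called. The direction of the calls went with that of the gene. In genes 2-fold or more lower with RA, 85 of 98 called probe sets were higher relative to their gene, and 70 of these 85 differed by less than 0.5 log2 units themselves. In genes 2-fold or more higher with RA, 143 of 230 were lower relative to their gene, and 113 of these 143 differed by less than 0.5 themselves. The other 87 were higher than their gene, but only 39 of these lay above the array median in both states. Over all 432, 210 differed by less than 0.5 in their own intensity: they stood still while their gene moved. Where probe sets differ in response range, a change of the whole gene can by itself change relative usage, which was not tested. The array median lay at 4.11 on the log2 scale, and several probe sets named below read close to it.

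**Figure D1:**
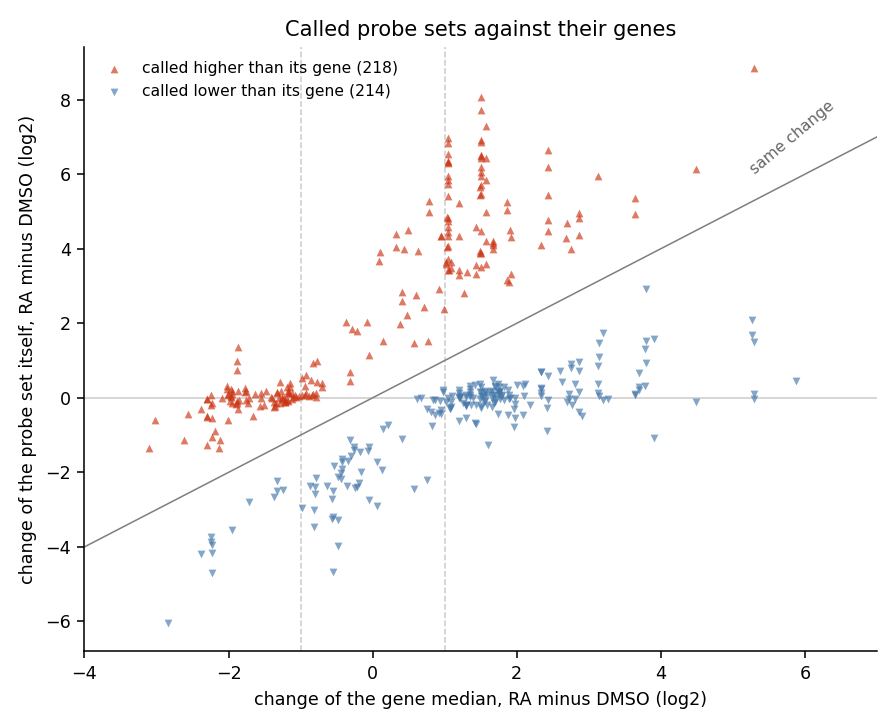
Each point is 1 of the 432 called probe sets, with the RA minus DMSO difference of its gene median on the x axis and of its own log2 intensity on the y axis; red triangles are the 218 called higher than their gene, blue ones the 214 called lower, the grey diagonal marks equal change and the dashed lines a 2-fold gene difference. The points gather along the horizontal line at 0 on both sides, the 210 probe sets within 0.5 of no change of their own.

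Position along the gene was read from the array's numbering, turned round for genes on the minus strand. The sources used here give no coordinates for the probe sets, so the order within a gene is inferred from that between genes. Across 21 chromosomes on each strand the numbers followed the RefSeq gene starts with Spearman correlations of 0.880 to 1, over genes of one strand. With 9981 genes placed, each gene was divided into 5 parts of equal width in the order of its tested probe sets. The first and last parts held more probe sets (41683 and 39619) than the inner ones (35492 to 35687). In the first part, at the 5′ end, 0.326% of the probe sets were called, against 0.101% to 0.163% in the 4 others. On the plus strand the first part held 0.250% and on the minus strand 0.405%.

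The 5′ end also carried the direction. In genes 2-fold or more higher with RA, 62 of the 69 calls in the first part were lower relative to the gene, 60 of them above the array median in both states. In the last part 22 of 30 were higher, but only 2 of the 22 were above it in both. In genes 2-fold or more lower with RA, 45 of the 46 calls in the first part were higher. In genes that differed by less than 2-fold, the first part held 12 higher and 9 lower calls and the last part 11 higher and 12 lower. These shares are descriptions, with no test of position.

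**Figure D2:**
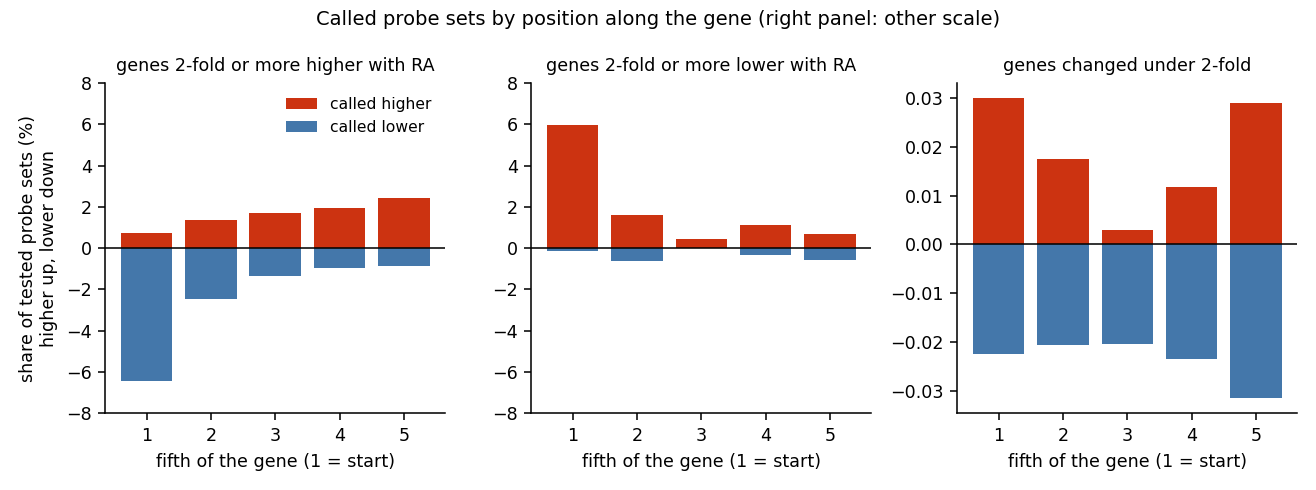
Bars give the share of tested probe sets called higher (red, upwards) or lower (blue, downwards) in each of 5 parts of the gene from its start, in percent, for genes 2-fold or more higher with RA, 2-fold or more lower, and changed under 2-fold (on a much smaller scale). In the left panel the blue bar is longest at the start (62 of 963 probe sets), in the middle panel the red bar (45 of 753); the red bars of the left panel are mostly probe sets that were bright with RA alone (2 of 22 in the last part were above the array median in both states).

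Calls seldom came in long stretches. Of the runs of neighbouring called probe sets in one direction, 321 held 1 probe set, 35 held 2, 9 held 3, 1 held 4 and 1, in PAX6, held 10. None of the 11 runs of 3 or more lay in a gene that differed by less than 2-fold. These runs include the 74 calls that had to differ because they were bright in one state alone. Most calls of PAX6, and of LIMCH1 with the run of 4, were of that kind. The run lengths were thus partly fixed by the filter, and no count without such calls is given. Of the 253 genes 170 had 1 called probe set and 83 had 2 or more, in 58 of these all in one direction. Neighbours still resembled one another: the relative usage differences of adjacent probe sets correlated at r = 0.386 over 9514 pairs in genes that differed by 2-fold or more and at 0.189 over 233653 pairs in the others, against 0.136 and 0.0607 for probe sets 6 places apart. Adjacent probe sets can share an exon, and pairs share arrays and genes.

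PAX6 and LIMCH1 held the most called probe sets, 13 of 38 and 14 of 37, all higher. PAX6 is the homeodomain factor of neural and eye progenitors, with more than one promoter, and LIMCH1 is an actin-associated protein with LIM and calponin homology domains, an activator of non-muscle myosin. In each gene only 2 of these lay above the array median in both states; the others entered through the RA arrays where they are bright, and the gene centre leaves such probe sets out, so that a higher relative value was fixed by the choice. The values of both genes are therefore given as a description, with no test. The first 3 PAX6 probe sets along the gene differed by a median of 0.54 and the stretch from 25 to 37 by a median of 6.19. Between them the probe sets were mixed, with differences from 0.11 to 6.49 at places 4 to 24 (median 2.15). The median intensity of the stretch from 25 to 37 was 3.06, 2.47, 2.94 and 3.25 on the DMSO arrays (siLacZ GF117 and GF120, siRNF20 GF117 and GF120) and 9.74, 9.23 and 9.18 on the RA arrays (siLacZ GF120, siRNF20 GF117 and GF120), with no overlap. At place 29 the values were 1.54, 1.91, 1.00 and 2.70 in DMSO and 10.31, 9.56 and 9.57 with RA, in the same order of arrays. The value 1.00 is the floor of the deposited values, and no detection call comes with them, so the fold of such a probe set is limited by the floor.

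In LIMCH1 the first 4 probe sets differed by a median of 0.00 and none by more than 0.05, places 5 to 17 by −0.09 to 5.01 (median 1.71), and places 18 to 37 by −0.12 to 6.97 (median 4.75). On the RA arrays the last stretch had a median of 8.24, 8.09 and 7.20, and on the DMSO arrays of 3.39, 3.73, 3.21 and 2.99, with no overlap. The gene centre of PAX6 differed by 1.5 and that of LIMCH1 by 1.05, while the median over all their tested probe sets differed by 3.28 and 3.08. MECOM, a zinc finger factor of stem and progenitor cells with more than one promoter, and HOXD1, a homeobox gene near the RA-responsive 3′ end of its cluster, had probe sets of the same kind. That of MECOM at place 9 of 23 read 1.00 to 1.95 in DMSO and 7.96 to 8.87 with RA, and that of HOXD1 at place 10 of 11 read 1.00 to 4.33 in DMSO and 8.36 to 9.13 with RA.

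**Figure D3:**
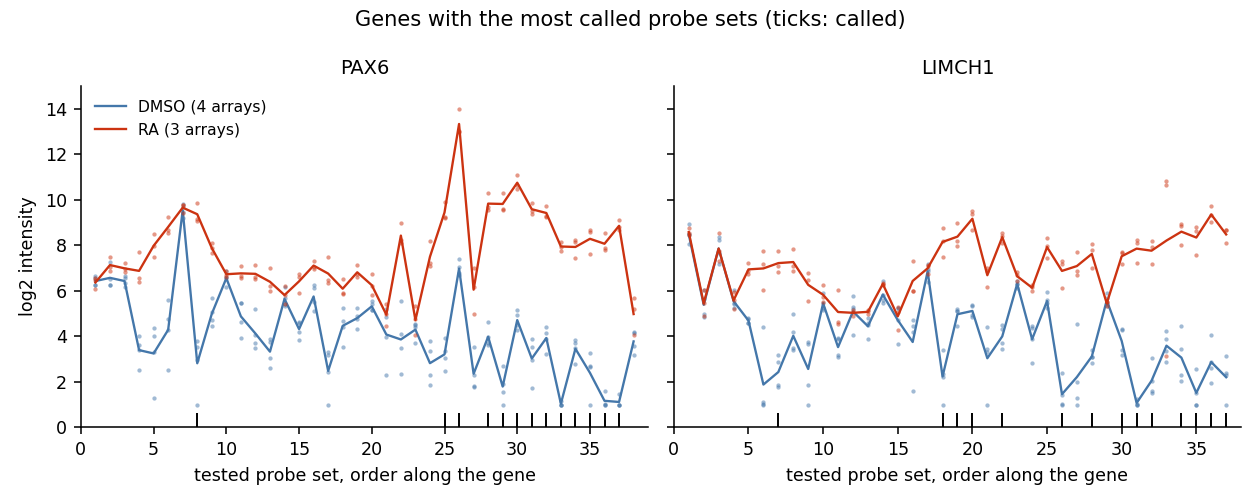
Log2 intensity of every tested probe set along PAX6 and LIMCH1 in order from the gene start; points are arrays (4 DMSO in blue, 3 RA in red), lines the group means and ticks at the foot the called probe sets. The lines are close at the first 3 and 4 places (medians 0.54 and 0.00 apart), approach and part by turns further on (0.11 to 6.49 at places 4 to 24 of PAX6, −0.09 to 5.01 at places 5 to 17 of LIMCH1), and lie apart by medians of 6.19 in PAX6 (25 to 37) and 4.75 in LIMCH1 (18 to 37).

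The opposite picture, a start that followed a lower gene less or not at all, was seen in DCLK1, DNMT3B and OLFM1. The stretches given next were set after the profiles were seen and are descriptions. DCLK1 is a microtubule-binding kinase related to doublecortin, with long and short forms from separate promoters. Its gene level fell with RA by 1.87 ± 0.14 (SE, log2; limma adjusted p = 1.43e-05). Places 8 to 28 lay lower with RA in every probe set, by 1.69 to 2.47, with medians of 9.58, 9.46, 9.71 and 9.50 in DMSO and 6.82, 8.20 and 7.73 with RA. Places 1 to 7 differed by −0.27 to 0.98, and 3 of these 7 were called higher relative to the gene. The strongest, at place 4, had relative usage of −4.44, −4.49, −4.10 and −4.42 in DMSO and of −0.80, −1.65 and −2.2 with RA, a difference of 2.87 ± 0.35 (SE; adjusted p = 0.0228, kept without 1 of the 7 arrays). The values did not overlap, and the difference was 3.67 ± 0.46 in siLacZ and 2.34 ± 0.38 in siRNF20 cells (limma interaction, adjusted p = 1).

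DNMT3B, the de novo DNA methyltransferase that marks pluripotent cells and has many splice forms, fell by 1.36 ± 0.14 at the gene level (limma adjusted p = 0.000100). Its places 7 to 33 were lower in every probe set, by 1.06 to 1.87, and its places 1 to 6 by 0.16 to 0.57. No probe set passed without a block: the nearest, at place 3, had relative usage of −0.35, −0.50, −0.57 and −0.60 in DMSO and 0.95, 0.00 and 0.46 with RA, a difference of 1.04 ± 0.16 (SE; adjusted p = 0.0513, limma). With the GF number as a block it was 1.01 and passed (adjusted p = 0.0366). OLFM1, a secreted glycoprotein of the nervous system, was split in the middle. Places 9 to 16 were lower by 1.35 to 2.36, with medians of 8.59 to 8.92 in DMSO and 6.28 to 6.85 with RA. Places 1 to 8 differed by a median of 0.03, and the probe sets at places 2, 7 and 8 were called higher relative to the gene, by 1.99 ± 0.13, 2.01 ± 0.17 and 2.19 ± 0.24 (SE). Of these 8 the one at place 3 did not stand still and was lower by 1.86. Similar starts were called in EPHA1, an ephrin receptor, at its places 1 to 3 (1.80 to 2.27 higher relative to the gene), and in ALDH1A3, a retinaldehyde dehydrogenase that makes RA, at its places 2 to 4 (1.09 to 1.15 higher).

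TGIF1, PHC2 and SMARCA2 differed less as whole genes, with gene medians 0.07 lower, 0.94 higher and 0.34 higher. TGIF1 is a homeodomain co-repressor with several alternative first exons. Its places 3 to 6 were 0.46 to 0.78 higher with RA, its places 23 to 26 were 0.88 to 1.13 lower, and its places 9 and 10 were 1.44 and 1.36 lower in turn. The probe set at place 9 was called, with a relative usage difference of −1.37 ± 0.14 (SE; adjusted p = 0.0113). PHC2, a subunit of the Polycomb repressive complex PRC1, differed by a median of 0.16 over places 1 to 15 and of 1.22 over places 16 to 29, and its first probe set was called lower, by −1.03 ± 0.12 (SE). SMARCA2, the BRM ATPase of the SWI/SNF remodelling complex, differed by a median of 0.09 over places 1 to 28 and of 1.77 over places 29 to 42. The later stretch stood at 5.69, 5.32, 5.76 and 5.0 in DMSO and at 6.97, 6.87 and 6.27 with RA, with no overlap, yet none of its probe sets was called. A scan looked for the split of a gene into 2 stretches of 4 or more probe sets (mean log2 intensity above 6) with the largest difference between their median RA responses. Of 7494 genes that differed by less than 2-fold 35 had a split of 1 log2 unit or more. RNF220, TGIF1, SMARCA2, COL11A1 and FEZF2 had the largest 5, of 1.45 to 1.77. Among 332 genes that differed by 2-fold or more, 66 had one.

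**Figure D4:**
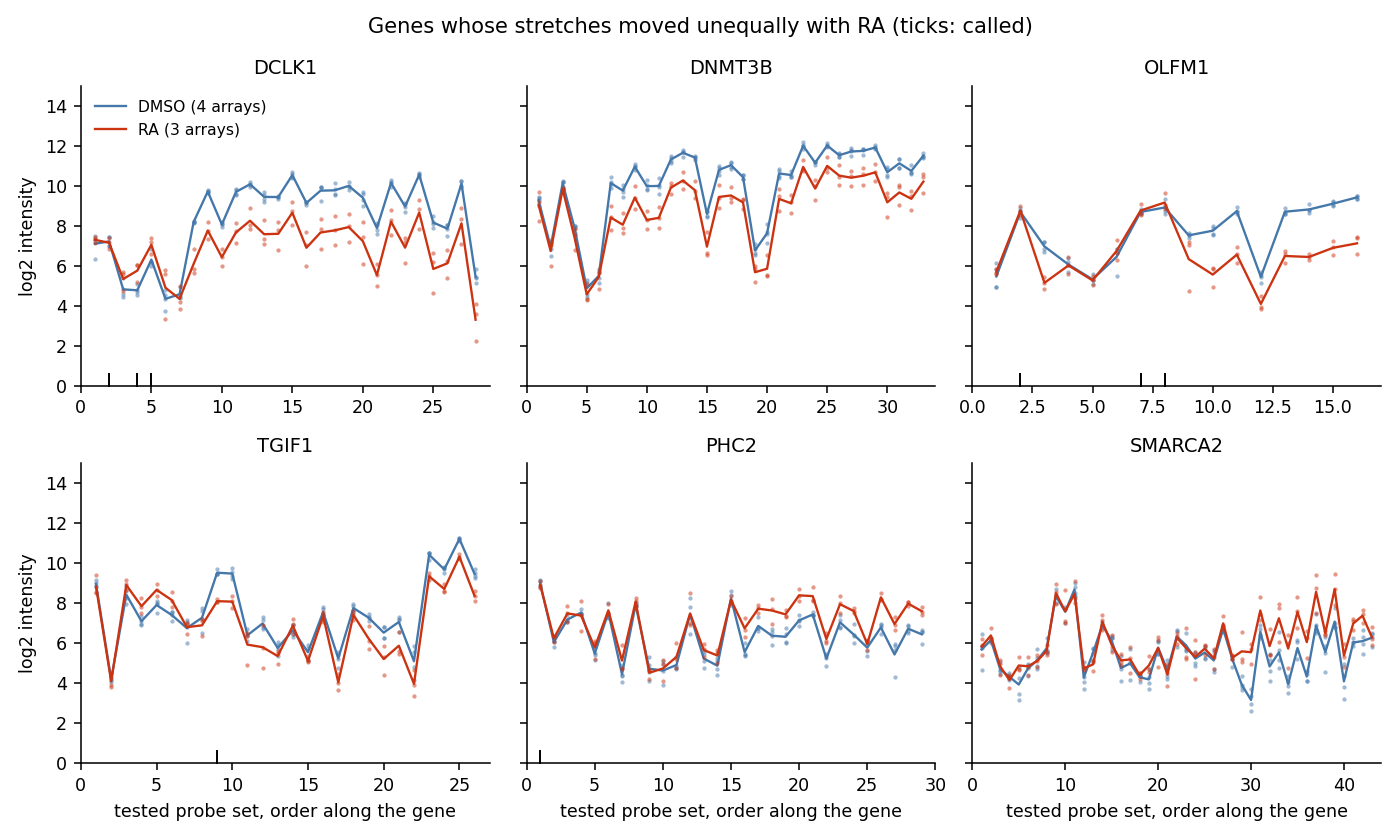
Log2 intensity of the tested probe sets of 6 genes in order from the gene start, with 4 DMSO arrays (blue) and 3 RA arrays (red) as points, group means as lines and called probe sets as ticks. In DCLK1, DNMT3B and OLFM1 the lines lie closer at the start than later, where they part by medians of −2.09, −1.47 and −2.22. In TGIF1 they cross. In PHC2 and SMARCA2 the RA line lies further above in the later part (medians 1.22 and 1.77) than in the earlier (0.16 and 0.09, with single probe sets up to 0.65 and 1.01).

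For DCLK1, LIMCH1, DNMT3B, TGIF1 and PAX6 the 250 bases before a gene start that RefSeq lists (GRCh38.p14) are given. They run 5′ to 3′ on the gene's strand, with CG dinucleotides, the sites of DNA methylation, in capitals. Only 1 listed start per gene was taken. Which probe sets lie beside it, and whether it is the start in use in these cells, was not determined.
DCLK1: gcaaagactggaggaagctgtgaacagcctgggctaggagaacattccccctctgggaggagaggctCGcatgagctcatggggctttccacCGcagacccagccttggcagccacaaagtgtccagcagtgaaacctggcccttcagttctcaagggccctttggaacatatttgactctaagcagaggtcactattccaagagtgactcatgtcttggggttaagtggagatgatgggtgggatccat
LIMCH1: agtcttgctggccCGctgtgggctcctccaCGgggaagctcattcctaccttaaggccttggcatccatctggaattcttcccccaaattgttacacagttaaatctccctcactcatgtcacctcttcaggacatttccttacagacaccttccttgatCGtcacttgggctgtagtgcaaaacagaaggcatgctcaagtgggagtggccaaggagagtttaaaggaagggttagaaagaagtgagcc
DNMT3B: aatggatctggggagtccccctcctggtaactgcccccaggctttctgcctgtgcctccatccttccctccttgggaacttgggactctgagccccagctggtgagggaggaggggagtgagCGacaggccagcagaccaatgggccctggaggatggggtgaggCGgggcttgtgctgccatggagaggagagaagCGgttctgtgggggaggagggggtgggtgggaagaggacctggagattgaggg
TGIF1: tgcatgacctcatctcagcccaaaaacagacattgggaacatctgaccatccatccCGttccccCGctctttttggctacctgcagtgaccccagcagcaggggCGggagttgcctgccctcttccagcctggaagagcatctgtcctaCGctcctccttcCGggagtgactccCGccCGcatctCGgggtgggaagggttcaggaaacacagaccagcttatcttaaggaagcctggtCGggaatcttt
PAX6: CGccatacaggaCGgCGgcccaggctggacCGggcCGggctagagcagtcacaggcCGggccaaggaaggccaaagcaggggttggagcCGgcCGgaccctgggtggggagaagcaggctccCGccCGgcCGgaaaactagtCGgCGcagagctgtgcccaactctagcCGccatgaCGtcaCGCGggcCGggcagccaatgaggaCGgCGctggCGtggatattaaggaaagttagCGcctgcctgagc

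The DCLK1 window (chr13:36131940-36132189, minus strand) held 2 CG dinucleotides, the LIMCH1 window (chr4:41359357-41359606, plus strand) 3 and the DNMT3B window (chr20:32779602-32779851, plus strand) 3, against a median of 11 over 35116 RefSeq promoter windows of the same length. The TGIF1 window (chr18:3411759-3412008, plus strand) held 9 and the PAX6 window (chr11:31817962-31818211, minus strand) 22. RA receptors bind paired copies of the half-site AGGTCA. That motif, searched on both strands as AGGTCA or TGACCT, occurred once in the DCLK1 window, once in the TGIF1 window and not in the 3 others, and in 12.08% of all windows. The windows of PHC2 and SMARCA2, not printed here, held 21 and 29 CG dinucleotides and no such motif. A match is a description of letters, not a binding site.

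In genes that differed by less than 2-fold, the 10 strongest increases and 10 strongest decreases were taken, 1 probe set per gene, from called ones above the array median in both states whose RA and DMSO values did not overlap. Of the 34 named probe sets that passed the test and lay above the array median in both states, 6 kept their call whichever array was left out (ATP6V1B1, CYP26A1, H19, MEIS2, NKX1-1 and TPTEP1) and 5 lost it only without RA siLacZ GF120 (GSX1, MACF1, PLXNA2, ROBO2 and SKAP2). Another 10 kept it in no fit that left out an array (ACSM1, CHRNB2, CRX, CUBN, FUT1, HECW1, HLA-DPB2, MACROD2, RBM47 and SOX1), of which CRX was tested in 5 of the 7. NKX1-1, a homeobox gene, had the largest increase under this choice. At place 7 of 8 its log2 intensity was 6.14, 6.46, 6.32 and 6.76 in DMSO and 10.29, 10.46 and 10.30 with RA, and relative usage differed by 3.79 ± 0.17 (SE; adjusted p = 0.000122). Every RA value lay at least 3.27 above the gene median, and the DMSO values lay between −0.50 and 0.00. This was among the firmest calls, with an adjusted p of at most 0.0109 when any one array was left out.

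The other increases included probe sets of GSX1, a homeobox gene of ventral forebrain progenitors (3.55 ± 0.36 at place 7 of 9), FEZF2, a zinc finger factor of cortical projection neurons (3.4 ± 0.45, in a gene with 3 calls, 2 higher and 1 lower), SOX1, an early neural plate factor (2.14 ± 0.27 at place 11 of 11) and HES5, a NOTCH target that holds progenitors undifferentiated (1.99 ± 0.26 at place 9 of 9). In SOX1 and HES5 the probe set lay at the 3′ end. The SOX1 probe set stood at 4.60, 5.11, 5.22 and 4.21 in DMSO and at 8.43, 7.06 and 6.75 with RA. In DMSO those of GSX1 (4.28 to 5.44), FEZF2 (3.61 to 5.11) and HES5 (4.30 to 4.90) also lay near the array median of 4.11. The gene medians were higher with RA too, by 0.44 in GSX1, 0.94 in FEZF2, 0.60 in SOX1 and 0.92 in HES5. Whether these calls reflect exon choice was not tested. HECW1, an E3 ligase, gave 2.39 ± 0.35 and CHRNB2, a nicotinic acetylcholine receptor subunit, 2.14 ± 0.30. RNF207 (2.21 ± 0.28) kept its call without 1 of the 7 arrays.

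MACF1, a giant linker of microtubules and actin with 140 tested probe sets and known neuronal exons, and FGD4, an activator of the small GTPase CDC42 with alternative first exons, are long genes whose medians differed by −0.08 and −0.22. The MACF1 probe set at place 4 rose relative to the gene by 2.12 ± 0.16 (SE; adjusted p = 0.00246). Its relative usage was −2.32, −2.42, −1.93 and −2.16 in DMSO and −0.24, 0.21 and −0.08 with RA, so that RA brought it from about 2 log2 units below the gene to its level on all 3 arrays. The difference was 2.14 ± 0.27 in siLacZ and 2.11 ± 0.22 in siRNF20 cells (limma interaction, adjusted p = 1). The FGD4 probe set at place 1 rose by 2.01 ± 0.27 (adjusted p = 0.0343).

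Among the decreases taken in the same way TPTEP1, an expressed pseudogene of the TPTE phosphatase family, was lowest. The relative usage of its probe set was 2.80, 3.07, 2.55 and 2.80 in DMSO and 0.05, 0.14 and 0.10 with RA, a difference of −2.69 ± 0.13 (SE; adjusted p = 0.000220), and the call held with any one array left out (adjusted p at most 0.0159). The row numbers of its 13 probe sets span 682878, so they do not form one place on the array and no position is given; of the 432 calls 17 lie in genes with such a spread. Related copies of TPTE can also share signal with it. TUBA4B, a tubulin alpha pseudogene, gave −2.68 ± 0.29 and the axonemal dynein DNAH9 −2.2 ± 0.25. CRX, the photoreceptor homeobox factor, gave −2.07 ± 0.31, from 7.44, 7.69, 6.85 and 7.39 in DMSO to 4.73, 5.82 and 5.72 with RA. MACROD2 (an ADP-ribosyl hydrolase), the HLA class II pseudogene HLA-DPB2, ACSM1 (an acyl-CoA synthetase), CUBN (the endocytic receptor cubilin), PLA2G2A (a secreted phospholipase) and FUT1 (the fucosyltransferase of the H antigen) ranged from −2.09 for MACROD2 to −1.78 for FUT1. HLA-DPB2 and TUBA4B have close relatives in the genome, so their signal is uncertain to that extent.

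**Figure D5:**
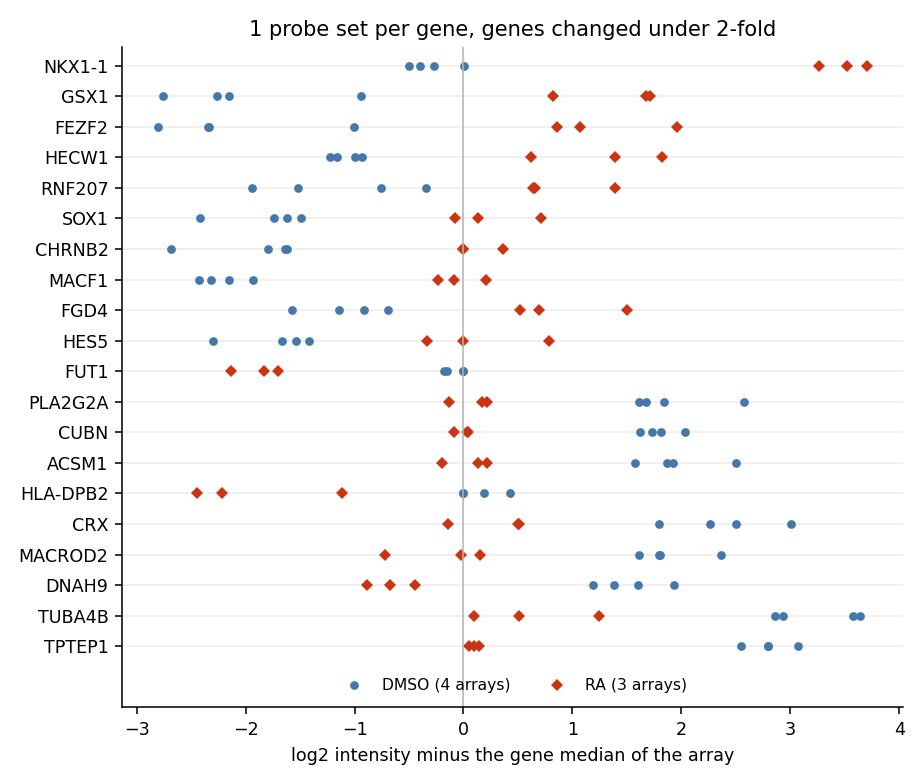
Relative usage (log2 intensity minus the gene median of the same array, x axis) of 1 probe set in each of 20 genes that differed by less than 2-fold, with 4 DMSO arrays as blue circles and 3 RA arrays as red diamonds. In each gene all RA points lie on one side of all DMSO points, as the choice of probe sets required. The differences run from NKX1-1 (3.79 higher) to TPTEP1 (2.69 lower).

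Of 32 regulators of neural and epithelial splicing with a gene level, 2 were higher (MBNL2 by 2.66 ± 0.31, MSI1 by 0.80 ± 0.13) and 2 lower (RBM47 by −1.76 ± 0.19, ESRP1 by −1.42 ± 0.14), a share near the 11% of all genes, with a list median of −0.01 against −0.04 over all genes. MBNL2 promotes the exon choice of differentiated muscle and neural cells, MSI1 is the neural progenitor protein Musashi, and ESRP1 and RBM47 maintain epithelial exons. ESRP1 stood at 9.04, 8.75, 9.08 and 8.86 in DMSO and at 7.28, 7.66 and 7.72 with RA, without overlap. The neural repressors PTBP1 and PTBP2 differed by 0.06 ± 0.11 and 0.29 ± 0.12 (limma adjusted p = 0.84 and 0.16). In limma 0 of 42 SR proteins and hnRNPs were called (3 had an unadjusted p below 0.05) and 1 of 51 core spliceosome genes was lower (PRPF19, by −0.48 ± 0.13), against 11% of all genes. At the exon level 2 of 559 probe sets of the neural and epithelial regulators were called (ESRP1 and RBM47, each higher relative to a falling gene), 0 of 1048 in SR proteins and hnRNPs and 0 of 1177 in the core spliceosome, against 0.168% of all (limma; 79 and 62 of the latter lists had an unadjusted p below 0.05).

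The RBM47 probe set, at place 10 of 15, is a clear case of one that stood still. It read 10.25, 10.17, 10.00 and 10.29 in DMSO and 9.70, 10.16 and 10.35 with RA, while the gene median fell by 1.72, with a relative difference of 1.59 ± 0.23 (SE; adjusted p = 0.0429). The call was lost whichever array was left out. That of ESRP1 (1.43 ± 0.17, adjusted p = 0.0207), read at 6.74 to 7.55 in DMSO and 6.79 to 7.65 with RA, was kept without 1 of the 7.

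Genes with exons that such factors are known to control were counted over all their probe sets, not over the controlled exons alone. In 28 genes with ESRP-dependent or epithelial-mesenchymal exons limma called 0 of 889 probe sets (54 had an unadjusted p below 0.05), and in 23 genes with stem-cell isoforms 0 of 553 (63), against 0.168% of all, a share that leaves little room for calls in lists of this size. In 58 genes with neuronal exons 4 of 2249 were called (0.178%, near that share), in MACF1, NRCAM and ROBO2. FGFR2, whose mutually exclusive exons are the textbook ESRP target, had its lowest p at place 23 of 43, with a difference of 0.74 ± 0.18 (adjusted p = 0.259). For PKM, the pyruvate kinase with M1 and M2 exons, this was 0.97 ± 0.40 (adjusted p = 0.643), and for the adhesion molecule NCAM1 −0.77 ± 0.15 (adjusted p = 0.123). The row numbers of the PKM probe sets span 528152, so its gene median mixes distant places on the array. The PKM probe set read 4.22 to 6.04 in DMSO and 5.72 to 6.67 with RA, far below a mean gene median of 9.96. Whether it lies in the M1 or the M2 exon was not determined. CD44 and RARB had too few probe sets above the array median in DMSO and RA to be tested. At the gene level CD44 fell by 2.45 on the log2 scale and the RA receptor gene RARB rose by 6.10 ± 0.31. For RARA and RARG the probe sets of lowest p gave −1.18 ± 0.21 (adjusted p = 0.106) and −0.48 ± 0.23 (adjusted p = 0.693), and for RNF20 0.30 ± 0.15 (adjusted p = 0.707).

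Genes of retinoid metabolism and response held 21 calls in 653 probe sets, 9 higher and 12 lower, in 9 of 32 genes (ALDH1A3, CYP26A1, MEIS1, MEIS2, NR2F1, NR2F2, NR6A1, SKAP2 and STRA6), against 0.168% of all probe sets and 3.26% of those in genes that differed by 2-fold or more. Of the 21, 18 lay above the array median in both states. At the gene level 16 of 38 rose and 2 fell, against 4.45% and 6.51% of all genes. CYP26A1 is the RA-degrading hydroxylase and rose by 4.70 ± 0.19 as a gene. Its probe set at place 2 of 11 stood at 10.53, 10.46, 10.79 and 10.19 in DMSO and at 10.06, 10.40 and 10.78 with RA, and thus fell relative to the gene by 4.60 on the log2 scale (SE 0.13, adjusted p = 1.18e-05). The RA and DMSO intensities of this probe set overlap, while the gene median was 4.49 higher with RA.

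MEIS2, a homeodomain cofactor of HOX proteins, rose by 5.10 ± 0.23 as a gene (adjusted p = 5.05e-07), but its probe sets at places 3, 4 and 6 of 27 were called lower relative to it. That at place 6 read 5.31, 5.79, 5.30 and 5.95 in DMSO and 5.56, 5.66 and 5.44 with RA. SKAP2, an adaptor protein next to the HOXA cluster, rose most of the listed retinoid genes (6.23 ± 0.20), and its first probe set read 4.0 to 4.86 in DMSO and 4.84 to 5.0 with RA (relative difference −5.43 ± 0.38, adjusted p = 0.00164). In the orphan receptor gene NR2F1 the first of 10 probe sets was higher (2.82 ± 0.24) and the next 3 lower (−2.28 to −2.99) relative to a gene median that was 3.12 higher. In NR2F2, its close relative, the probe set at place 15 of 17 was higher, by 3.01 ± 0.39 (adjusted p = 0.0272). Its neighbour at place 16, which entered through the RA arrays alone, read 1.18 to 3.62 in DMSO and 6.56 to 8.11 with RA. H19, an imprinted noncoding RNA outside this list, had a probe set at place 5 of 17 that was 3.59 ± 0.12 lower relative to a gene 5.27 higher. Its intensities of 9.15 to 9.58 in DMSO and 10.14 to 12.01 with RA did not overlap. Of the 47 probe sets named by rule, H19 alone kept its call under all 13 alternative settings other than leaving out single arrays.

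Adhesion and axon guidance genes had 7 calls in 2008 probe sets, all lower relative to their genes, in CNTN1, NRCAM, PLXNA2, ROBO2 and SEMA6D (0.349% of the list, 6 of the 7 above the array median in both states; 0.0833% of all probe sets were called lower). Each of these genes had a median 2-fold or more higher with RA, by 1.76 (NRCAM) to 3.90 (ROBO2). Among all genes higher by that much, 143 of 5415 probe sets were called lower. In CNTN1, SEMA6D and ROBO2 the strongest was the first probe set of the gene. ROBO2, the SLIT receptor of growing axons, rose by 4.65 ± 0.25 as a gene, whereas its first probe set read 5.31, 5.30, 5.66 and 5.71 in DMSO and 3.99, 4.53 and 4.98 with RA, a relative difference of −4.99 ± 0.35 (SE; adjusted p = 0.00166). CNTN1, a neuronal adhesion molecule, gave −2.25 ± 0.22. The first probe set of the semaphorin SEMA6D lay below the array median with RA and is given without a test, at 3.77 to 5.09 in DMSO and 3.61 to 4.44 with RA. In NRCAM, a cell adhesion molecule at the node of Ranvier with neuronal exons, the probe set at place 23 of 41 read 6.66 to 7.20 in DMSO and 6.98 to 7.55 with RA while the gene median was 1.76 higher (relative difference −1.60 ± 0.17, adjusted p = 0.0123). The plexin PLXNA2 gave −3.47 ± 0.30 at place 36 of 41.

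In the actin list all 14 calls of 1893 probe sets, among 59 genes, were those of LIMCH1, of which 2 lay above the array median in both states. Microtubule and motor genes had 6 calls of 1678 (0.358%, against 0.168% of all), in DCLK1, MACF1 and TUBA1A. TUBA1A, the main tubulin alpha of young neurons, rose as a gene by 0.98 ± 0.11 (adjusted p = 0.000251), and its probe set at place 4 of 8 read 13.05 to 13.27 in DMSO and 13.19 to 13.43 with RA (relative difference −0.84 ± 0.11, adjusted p = 0.0255). Tubulin genes are near-identical, so this probe set may share signal with its relatives. Its values also lay near the brightest of the DMSO arrays (13.77 to 13.85), and saturation was not tested. Of 2299 probe sets in 69 chromatin and DNA methylation genes 1 was called (0.0435%), in CHD3, an ATPase of the NuRD complex: it read 11.97 to 12.21 in DMSO and 11.94 to 12.35 with RA in a gene that rose (relative difference −1.05 ± 0.12, adjusted p = 0.0171). ATP6V1B1, a subunit of the vacuolar proton pump, had 7 calls in 23 probe sets, 5 higher and 2 lower, 5 of them above the array median in both states. The strongest, at place 16, went from 8.06, 8.55, 8.88 and 8.69 in DMSO to 16.01, 14.98 and 14.50 with RA (relative difference 4.22 ± 0.23, adjusted p = 0.000376). It was the brightest probe set of each of the 3 RA arrays, so saturation may limit these values, which was not tested.

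The 2 siRNA backgrounds were also set against each other. No probe set differed in its RA response between siRNF20 and siLacZ cells (limma interaction, 0 of 256811 called, 0%, smallest adjusted p = 1), and 10294 had an unadjusted p below 0.05. All 432 called probe sets had the same sign in both backgrounds, and 255 had the larger difference in siLacZ. The median size was 1.85 in siLacZ and 1.80 in siRNF20 cells. These 432 were chosen from the same arrays, and siLacZ rests on 1 RA array, so a miss of the threshold does not show that the backgrounds responded alike. Among the named probe sets the siRNF20 response was smaller in FGD4 (1.53 ± 0.26 against 2.75 ± 0.32) and larger in RBM47 (2.0 ± 0.21 against 0.96 ± 0.25), and neither difference passed (adjusted p = 1). In the 4 siRNF20 arrays alone 3 probe sets in 3 genes were called (0.00117%). Read in the siLacZ arrays, which that test did not use, the 3 had the same sign, with the RA value outside both DMSO values. On RA siLacZ GF120 47.6% of all 256811 probe sets lay beyond all 4 DMSO arrays on either side, so 3 such values carry little weight.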

How the data were processed

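Per the labels, total RNA of biological duplicates was biotin-labelled for the arrays as the maker prescribes. The authors deposited 1 linear intensity per probe set and array; background correction, normalization and tools are not given in the sources used here. Values were used as deposited, on the log2 scale with no offset. Of 1384231 rows, 354600 carry 1 gene symbol, 14898 several and 1014733 are unlisted in the table used; the latter 2 kinds were left out. Of 19497 symbols 16426 were current, 2950 were updated and 121 kept.

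limma 3.58.1 (R 4.3.3) fitted siRNA and RA terms to relative usage on 7 arrays (4 residual degrees of freedom), with an intensity trend in eBayes. p-values are two-sided, adjusted over all probe sets tested. Arrays have no read depth, and their number limits the precision. On simulated data the test recovered 0% of seeded differences of 1 log2 unit, 12% at 1.5, 42% at 2 and 68% at 3. Of the calls there, 1.61% had no seeded difference. The simulated noise was independent between probe sets, with its spread taken from uncentred values. Gene-wide differences were the same in all probe sets of a gene. These shares may therefore differ in the real data. Leaving out RA siLacZ GF117 followed from its values. Genes whose numbers spanned over 5000 (1265) were left out of positions. Figures used Python 3.11.15 and matplotlib 3.10.9.

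Members and lists were chosen with earlier results of these data known. Named were: the 10 highest and 10 lowest probe sets, 1 per gene, among called, non-overlapping ones above the array median in both states in genes that differed by less than 2-fold; in each list up to 4 called genes; DNMT3B, RARA, RARB, RARG, NCAM1, PKM, CD44, FGFR2 and RNF20 always; the 5 highest and 5 lowest in the other genes; and runs of 3 or more in genes under 2-fold, of which there were none. OLFM1, TGIF1, PHC2, SMARCA2, EPHA1 and ALDH1A3 were singled out after their values were seen. The labels do not say what the GF number marks, and the fits have no block on it; GF117 minus GF120 differences correlated at 0.228 to 0.266 between the 3 complete groups, so blocked values are given where they move a call or a count.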

Additional observations from a re-analysis of the deposited data

Results flagged for a closer look

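The RA siLacZ GF117 array, which was left out of the fits of the report, gave values beyond those of the DMSO arrays. On it 256 of the 432 called probe sets lay beyond all 4 DMSO arrays on the side of the call, and 281 of 432 (65%) had the sign of the call against the DMSO siLacZ arrays. The 432 were chosen against the same DMSO arrays, so this is no independent check. Of all 256811 probe sets tested, 45% lay above all 4 DMSO arrays on it and 40.2% below, whereas on the 3 RA arrays used 39.9% to 47.6% lay beyond on either side. What sets the array apart was not tested.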

How the results depend on the processing

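The direction of all 47 named probe sets was kept in every alternative in which they were tested. The number of called probe sets, 432 in the report, was 233 with the 75th percentile in place of the array median, 660 with an offset of 16, 906 with the gene mean as centre, 122 without the intensity trend, 2536 with diffSplice, 1 with all 8 arrays and 3 in the siRNF20 arrays alone. In genes that differed by less than 2-fold (104) it was 66 with the filter in both states, 224 with the offset, 326 with the mean, 25 without the trend, 1619 with diffSplice, 0 with all 8 arrays (7481 probe sets had an unadjusted p below 0.05 there) and 0 in the siRNF20 arrays alone (10387). Genes with a call (253) numbered 137, 438, 78, 1648, 1 and 3 with the 75th percentile, mean, no trend, diffSplice, all 8 arrays and siRNF20 alone. Leaving out single arrays gave 17 to 225 probe sets, 3 to 42 in the genes under 2-fold, 13 to 135 genes, and 720 to 2113 genes called at the gene level (2042 in the report), the lowest each time without RA siLacZ GF120. Gene-level calls were 84 with all 8 arrays and 553 in siRNF20 alone. With the GF number as a replicate block 845 probe sets in 466 genes were called, 278 of them in genes under 2-fold, and the 845 held all 432. Of the 47 named probe sets the block changed the call of DNMT3B alone. With quantile normalization 434 were called, 431 of them shared. The interaction called 0 in each setting run, with smallest adjusted p from 0.197 to 1. Causes of these shifts were not tested. Of the 432 calls 408 were of 2-fold or more, and the smallest was of 0.63 log2 units. In the simulation seeded differences of 1 log2 unit were not recovered. Its noise was not that of the centred values, so it does not settle how far smaller exon changes were detectable.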
